A study of Mus musculus with 4 samples.

Results

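The 7 genes *Efna1*, *Efnb1*, *Efnb2*, *Ephb4*, *Ephb3*, *Epha2* and *Epha4* were followed in dermal blood vascular endothelial cells (BECs) sorted singly from the mouse ear. They were chosen by name from the 22 genes that encode ephrins and Eph receptors in the mouse, among 46517 genes counted in every well. Their levels, the share of wells in which they were read and the occurrence of *Efnb2* and *Ephb4* in the same well were described in artery-, capillary- and vein-like BECs. The identity of these classes came from markers that include no ephrin or Eph receptor, and all 22 genes of the family stayed out of the clustering.

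Ephrins are ligands held in the membrane of a cell, and Eph receptors are receptor tyrosine kinases on its neighbour, so that signalling requires contact between cells and can run into both of them. A-type ephrins are attached by a lipid anchor and mainly bind EphA receptors, whereas B-type ephrins span the membrane and mainly bind EphB receptors. In blood vessels, ephrin-B2 (*Efnb2*) is known as a mark of arterial endothelium and its receptor EphB4 (*Ephb4*) as a mark of venous endothelium, and both are needed for the vascular network to form.

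Cells gated as CD31+/CD45-/Lyve1- were sorted from the ear dermis of female wild-type C57Bl/6 mice without treatment into 4 plates of 384 wells for Smart-seq2, a plate-based method that reads transcripts along their length without molecular identifiers. The labels give the mice as adults of 12 to 26 weeks, whereas the methods of the study give a younger range and the substrain C57BL/6 J. There were 2 replicates of 2 plates (A and B), each replicate a pool of cells from 6 mice, so the number of replicates is 2 throughout. A well was kept as a BEC when 2 or more of the endothelial genes *Cdh5*, *Kdr* and *Pecam1* were read in it and each of 5 genes of other cell types stayed under 100 CPM (reads scaled to the total of the well). In replicate 1 this retained 338 of 768 wells and in replicate 2 it retained 363 of 768, with medians of 142614.5 and 92974 reads.

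The capillary-like cluster was higher than other wells for 12 of 12 capillary markers, the vein-like cluster for 11 of 12 vein markers and the artery-like cluster for 12 of 13 artery markers. Artery-like wells were few, 20 in replicate 1 and 22 in replicate 2, and the plates held 4, 16, 7 and 15 of them. Capillary-like wells numbered 125 and 39, and vein-like wells 53 and 50. Another cluster of 74 and 67 wells was higher for 4 artery markers (*Sox17*, *Bmx*, *Dll4* and *Cxcl12*) and was left unnamed. A further cluster of 37 and 104 wells carried mural, fibroblast, keratinocyte and lymphatic markers and was also left unnamed, and the remaining 29 and 81 wells had no class. Reads of all 10 mural markers were present in every class, with a summed level of 1126 to 1562 CPM in the 3 classes of replicate 1 and 362 to 585 CPM in those of replicate 2. Fibroblast markers summed to 113 to 325 CPM in the classes of replicate 1, and in replicate 2 to 177 CPM in artery-like, 1005 CPM in capillary-like and 44.0 CPM in vein-like wells. Lymphatic markers summed to 21.5 to 64.2 CPM in replicate 1, and in replicate 2 to 61.8, 371 and 96.8 CPM in the same order of classes. The part of other cells in the values below was not tested. Median depth also differed between the classes, at 119104, 136582 and 199866 reads in replicate 1 and 161521, 44173 and 205590 reads in replicate 2.

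The upstream sequences of *Efnb2* and *Ephb4* are shown because the comparison of arterial and venous wells turns on this pair. *Efnb2* lies on the minus strand of chromosome 8 (mm10, 8617434 to 8661242) and *Ephb4* on the plus strand of chromosome 5 (137350109 to 137378669). The 250 bases before each gene's start are given on the strand of the gene, from RefSeq (GRCm38.p6), chr8:8661243-8661492 for *Efnb2* and chr5:137349859-137350108 for *Ephb4*. Capitals mark GC boxes, the hexamer GGGCGG on either strand, which is bound by factors of the Sp family.
Efnb2: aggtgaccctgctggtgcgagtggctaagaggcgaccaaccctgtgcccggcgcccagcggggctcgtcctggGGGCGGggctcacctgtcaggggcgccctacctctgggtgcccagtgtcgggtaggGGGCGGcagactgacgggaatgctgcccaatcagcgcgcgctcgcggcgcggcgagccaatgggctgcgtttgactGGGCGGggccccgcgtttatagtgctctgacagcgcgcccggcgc
Ephb4: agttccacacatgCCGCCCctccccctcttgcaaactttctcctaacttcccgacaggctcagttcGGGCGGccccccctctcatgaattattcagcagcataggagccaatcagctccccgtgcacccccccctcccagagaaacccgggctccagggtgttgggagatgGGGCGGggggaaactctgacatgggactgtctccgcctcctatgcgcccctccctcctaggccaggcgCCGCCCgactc
The *Efnb2* sequence held 3 GC boxes and 27 CG dinucleotides, and the *Ephb4* sequence 4 GC boxes and 12 CG dinucleotides. Over 32851 promoters of the same length, 32.7% held at least 1 GC box and the median number of CG dinucleotides was 6. Neither sequence held TGGGAA, the core of the site of the Notch effector RBPJ, nor ATTGTT, a site of SoxF factors, searched on both strands, letters that 21.6% and 9.42% of all promoters held.

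Across all kept BECs the 7 genes covered a wide range of levels. Because long transcripts collect more reads, genes were compared as mean CPM per kilobase of merged exons. *Efna1*, encoding the ligand ephrin-A1, was the highest at 270 ± 69.6 CPM per kilobase (SD, n = 2), followed by *Ephb4* at 40.1 ± 20.5. *Efnb1* (11.4 ± 4.97), *Epha2* (8.59 ± 3.12), *Efnb2* (6.66 ± 0.206) and *Epha4* (6.15 ± 3.13) came next on the same scale and lay within each other's spread, and *Ephb3* was the lowest at 0.9 ± 0.147. Thus *Efna1* and *Ephb4* stood apart from the rest, and the order of the 4 genes in between cannot be read from 2 replicates.

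The share of wells with any read depended on the replicate. *Ephb4* was read in 269 of 338 wells in replicate 1 (79.6%, exact binomial 95% interval 74.9 to 83.8) and in 126 of 363 in replicate 2 (34.7%, 29.8 to 39.9), and *Efnb2* in 42.3% (37.0 to 47.8) and 22.04% (17.9 to 26.7). Intervals of this kind cover counting error only. A single read was all that 63 *Ephb4* wells and 44 *Efnb2* wells of replicate 1 held, and wells are called positive at 10 CPM below unless another limit is named. The depth was so low that 1 read passes this limit in 74 wells from replicate 1 and in 186 from replicate 2. Of the wells with a single read, 11 of 63 for *Ephb4* and 7 of 44 for *Efnb2* reached 10 CPM in replicate 1, against 21 of 32 and 12 of 23 in replicate 2, and for *Efna1* it was 34 of 56 in replicate 2. At this level *Efna1* was present in 93.2% and 55.4% of the wells in the 2 replicates, *Ephb4* in 63.3% and 30.6%, *Efnb2* in 29.3% and 18.5%, *Epha2* in 20.1% and 9.1%, *Efnb1* in 18.9% and 7.7%, *Epha4* in 10.7% and 14.6%, and *Ephb3* in 2.4% and 2.2%. The replicates still differed for *Efna1* and *Ephb4* after each well was thinned to 20000 reads, a depth at which *Ephb4* was read in 57.3% of 337 wells and 29.3% of 294 wells.

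Mural wells of the same plates, with at least 300 CPM of *Pdgfrb* or *Kcnj8* and under 100 CPM of *Pecam1*, served as a comparison for these shares. Only 8 such wells were found in replicate 1 and 38 in replicate 2, with median depths of 197461.5 and 170239 reads. In the mural wells of replicate 2, *Efna1* and *Ephb4* reached 10 CPM in 13.2% each, *Efnb2* in 2.6% and *Epha4* in 5.3%, all below the share in BECs. *Epha2* (15.8%), *Efnb1* (10.5%) and *Ephb3* (5.3%) were at least as frequent in these mural wells as in BECs, and no expression in BECs is read from their shares in replicate 2. Whether mural cells express these genes was not tested. In replicate 1, *Efna1* and *Ephb4* each reached 10 CPM in 4 of 8 mural wells, *Epha2* in 2, *Efnb2* and *Efnb1* in 1 each, and *Ephb3* and *Epha4* in 0. The mean level of *Ephb4* in these 8 wells was 131 CPM and that of *Efna1* 91.8 CPM, against 253 and 584 CPM in BECs of replicate 1. *Efnb2* at 59.5 CPM and *Epha2* at 104 CPM lay above the 46.6 and 50.4 CPM of those BECs. The share of *Epha2* also exceeded that in BECs. Lymphatic wells, which carry at least 300 CPM of *Prox1* or *Lyve1*, numbered 11 and 113 and had *Efnb2* at 10 CPM in 36.4% and 22.1%, *Ephb4* in 72.7% and 31.9% and *Efna1* in 100.0% and 54.9%, shares near those of BECs. By mean level they had 77.9 and 130 CPM of *Efnb2*, against 46.6 and 44.6 CPM in BECs. Their *Ephb4* mean was 450 and 97.1 CPM (BECs 253 and 118), and their *Efna1* mean 430 and 157 CPM (BECs 584 and 404).

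**Figure D1:**
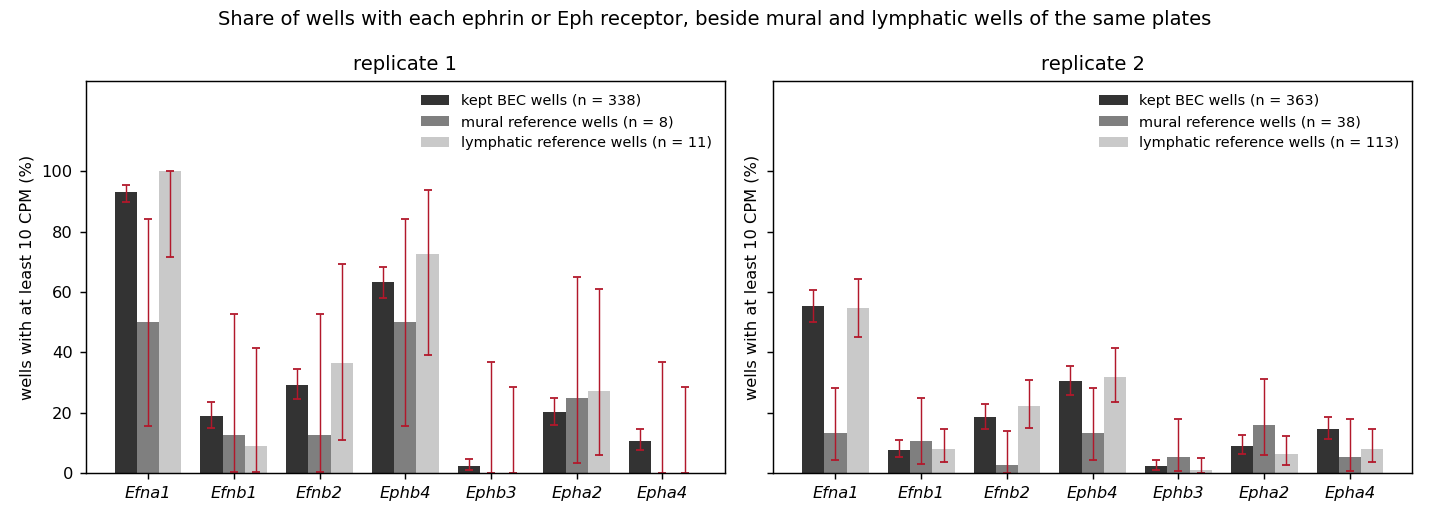
Share of wells (%) with at least 10 CPM of each gene in kept BEC wells (black), mural wells (dark grey) and lymphatic wells (light grey) of replicates 1 and 2, with exact binomial 95% intervals. *Efna1* and *Ephb4* were present in the largest shares of BECs, and *Efnb2* was at 29.3% and 18.5% of BECs against 12.5% (1 of 8 wells) and 2.6% (1 of 38) of mural wells.

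*Efnb2*, encoding the B-type ligand ephrin-B2, had a higher level in artery-like than in capillary- or vein-like wells of both replicates. Its mean level per well was 88.7 CPM in the artery-like wells of replicate 1 and 69.3 CPM in those of replicate 2. Capillary-like wells had 51.3 and 14.7 CPM, and vein-like wells 16.2 and 14.3 CPM, in the same order. Both artery-like values lay above all values of the other 2 named classes, whereas capillary- and vein-like wells overlapped. Outside the named classes, wells with no class had 97.3 and 60.5 CPM of *Efnb2*, above the artery-like level in replicate 1, and the cluster with 4 artery markers had 31.2 and 64.6 CPM. Lymphatic wells of the same plates had 77.9 and 130 CPM, above the artery-like level in replicate 2. On the 4 plates (1A, 1B, 2A and 2B) the mean was 275, 42.0, 18.1 and 93.2 CPM in artery-like wells and 28.4, 9.9, 21.0 and 2.3 CPM in vein-like wells. Within each plate other than 2A the artery-like wells were higher than the vein-like wells, and on plate 2A, with 7 artery-like wells, they were not. Capillary-like wells had 52.2, 50.5, 6.76 and 19.1 CPM of *Efnb2* on the same plates, and on plate 1B, with 16 of the 20 artery-like wells of replicate 1, they were above the artery-like wells. The share of wells with at least 10 CPM of *Efnb2* was 40% (8 of 20) and 27.3% (6 of 22) in artery-like wells, 32.0% and 12.8% in capillary-like wells, and 17.0% and 16% in vein-like wells. The reads came from few wells, since the 5 highest wells held 97.3% and 98.9% of the *Efnb2* reads of artery-like wells and 1 well alone held 211 of 328 and 269 of 373. Without the highest well of each class the mean was 37.1 and 38.1 CPM in artery-like, 44.6 and 3.91 CPM in capillary-like and 12.7 and 10.8 CPM in vein-like wells, so that capillary-like wells were then the highest of the 3 in replicate 1.

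*Efna1*, the ligand of EphA2 among other receptors, was read in every class at a high level. Its mean was 595 and 332 CPM in artery-like wells, 637 and 496 CPM in capillary-like wells, and 389 and 308 CPM in vein-like wells. Vein-like wells were the lowest class of each replicate as a whole, although the artery-like value of replicate 2 lay below the vein-like value of replicate 1. By plate (1A, 1B, 2A and 2B) artery-like wells had 798, 544, 270 and 361 CPM of *Efna1* and vein-like wells 376, 396, 271 and 374 CPM, so that on both plates of replicate 2 the vein-like wells were not the lower. Nor were they in replicate 2 without the highest well of each class, with 250 CPM in artery-like and 266 CPM in vein-like wells. The unnamed cluster with 4 artery markers had 687 and 691 CPM of *Efna1*, the highest pair of values of any group of wells.

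*Efnb1*, encoding the B-type ligand ephrin-B1, showed no stable order of classes. Mean levels were 73.2 and 13.5 CPM in artery-like wells, 98.1 and 45.1 CPM in capillary-like wells, and 20.6 and 47.3 CPM in vein-like wells. Capillary-like wells were the highest in replicate 1 and vein-like wells in replicate 2, and on plate A of both replicates the artery-like wells held no *Efnb1* read at all. Single wells carried several of these means, since without the highest well of each class they were 23.0 and 5.75 CPM in artery-like, 81.5 and 2.24 CPM in capillary-like, and 12.2 and 27.9 CPM in vein-like wells. In capillary-like wells of replicate 2, 1 well held 253 of 259 *Efnb1* reads.

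*Ephb4* was read in all 3 classes, and among them it was highest in vein-like wells of both replicates. Its mean level was 147 and 72.7 CPM in artery-like wells, 261 and 100.6 CPM in capillary-like wells, and 373 and 151 CPM in vein-like wells. With the plates of a replicate pooled, the order artery, capillary, vein was the same in both, while the replicates differed so much in level that the artery-like value of replicate 1 and the vein-like value of replicate 2 lay close together. The cluster with 4 artery markers had 209 and 156 CPM of *Ephb4*, the latter slightly above the vein-like value of replicate 2. The share of wells with at least 10 CPM of *Ephb4* was 65.0% and 18.2% in artery-like wells, 62.4% and 28.2% in capillary-like wells, and 90.6% (48 of 53) and 40% (20 of 50) in vein-like wells. Thinned to 20000 reads, a read of *Ephb4* was present in 60% and 19.05% of artery-like, 53.6% and 34.8% of capillary-like, and 81.1% and 34.0% of vein-like wells, so that vein-like wells of replicate 2 were no longer the higher, over the 23 of 39 capillary-like wells deep enough to enter. On the plates, artery-like wells had 10.5, 181, 35.1 and 90.2 CPM, capillary-like wells 256, 266, 213 and 37.6 CPM, and vein-like wells 434, 342, 205 and 55.2 CPM. Vein-like wells were the highest class on both plates of replicate 1 and on neither plate of replicate 2, where the capillary-like wells of plate A and the artery-like wells of plate B were above them. Without the highest well of each class the order of the pooled plates was the same, with 121, 249.1 and 340 CPM in replicate 1 and 41.6, 82.6 and 123 CPM in replicate 2.

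*Ephb3*, a receptor of B-type ephrins, was at the limit of detection. The artery-like wells held 2 reads in replicate 1 and 1 read in replicate 2, the capillary-like wells 71 and 0 reads, and the vein-like wells 42 and 5 reads. In 39 capillary-like wells of replicate 2, 0 reads of 2841374 allow up to 1.06 CPM. Per 1000000 reads of all genes, artery-like sums held 0.70 and 0.27 *Ephb3* reads and vein-like sums 3.68 and 0.45, and 1 well held 34 of the 42 vein-like reads of replicate 1.

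*Epha2*, the main receptor of ephrin-A1 in endothelium, differed between the replicates in artery-like wells. Its mean was 65.1 CPM in replicate 1 and 0 in replicate 2, where none of 22 artery-like wells held a read, which allows up to 0.80 CPM over their 3751568 reads. Capillary-like wells had 60.4 and 6.31 CPM and vein-like wells 42.7 and 65.5 CPM. The capillary-like value of replicate 2 rested on 4 reads in 4 wells. Without the highest well of each class the means of *Epha2* in replicate 1 were 45.0, 52.6 and 33.1 CPM in artery-, capillary- and vein-like wells, and in replicate 2 they were 0, 2.58 and 41.7 CPM. Vein-like wells were thus the lowest of the 3 in replicate 1 and the highest in replicate 2, with or without these wells.

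*Epha4*, a receptor that binds ephrins of both types, had 69.0 and 0.402 CPM in artery-like wells, 28.1 and 19.4 CPM in capillary-like wells, and 13.4 and 23.4 CPM in vein-like wells. The value of artery-like wells of replicate 2 rested on 1 read, and in replicate 1 a single well held 179 of the 225 reads. Outside the named classes, the cluster with 4 artery markers had 17.97 and 115 CPM of *Epha4*, wells with no class 27.0 and 66.7 CPM, and the cluster with markers of other cell types 81.0 and 90.0 CPM. Without the highest well of each class, artery-, capillary- and vein-like wells had 14.0, 16.5 and 7.90 CPM of *Epha4* in replicate 1 and 0, 8.63 and 3.60 CPM in replicate 2, so no order of the artery-like wells is read from the means. Over all kept wells of replicate 2, the 5 highest wells held 59.1% of the *Epha4* reads.

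**Figure D2:**
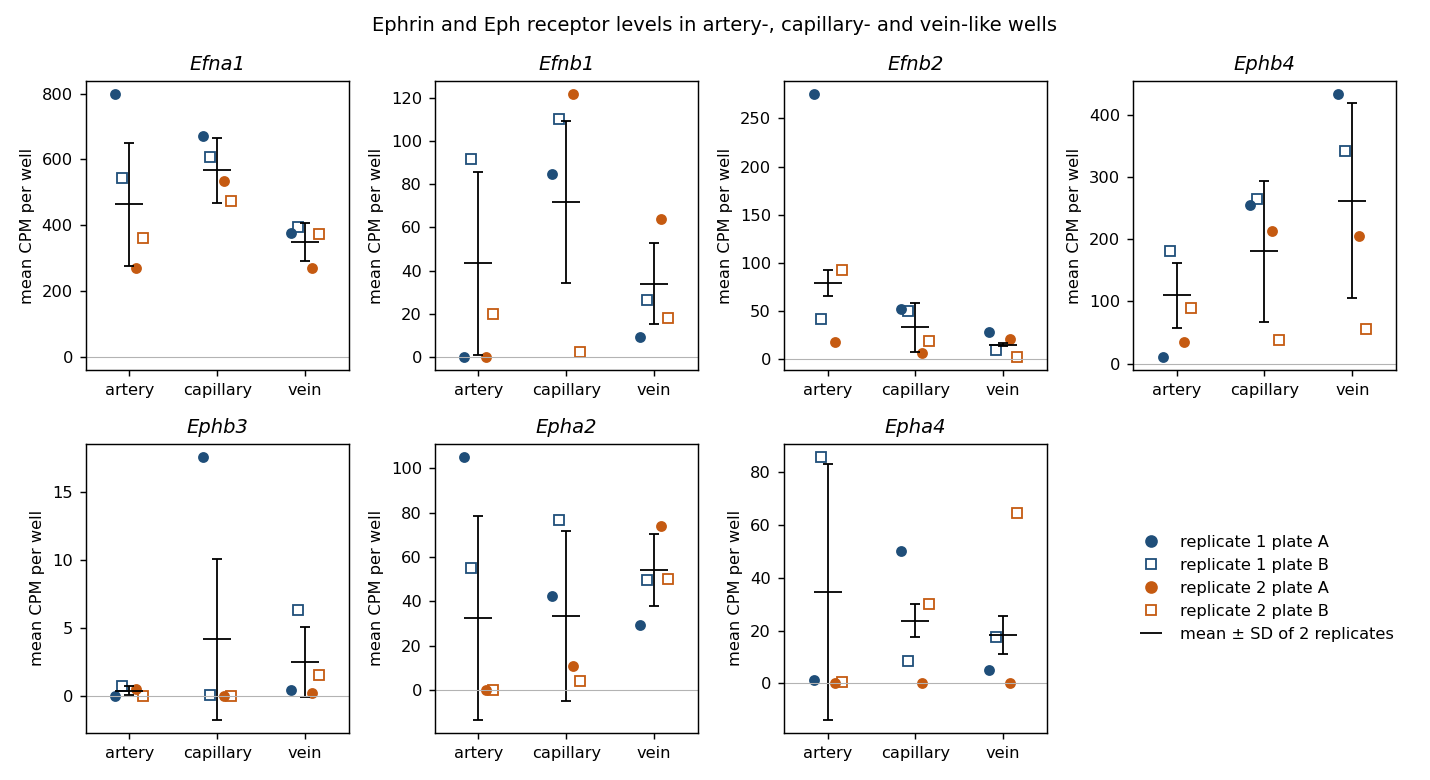
Mean CPM per well of the 7 genes in artery-, capillary- and vein-like wells on the 4 plates (circles, plate A; squares, plate B; blue, replicate 1; orange, replicate 2), with the mean and SD of the 2 replicates in black. *Efnb2* was 79.0 ± 13.7 CPM in artery-like and 15.2 ± 1.34 CPM in vein-like wells, and *Ephb4* was 110 ± 52.6 and 262 ± 157 CPM.

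To test these differences, reads were summed per replicate and class, and artery-like sums were compared with vein-like sums in edgeR (quasi-likelihood, blocked by replicate), with Benjamini-Hochberg adjustment over 14012 genes. The number of the 7 genes that passed an adjusted p of 0.05 in edgeR was 0, and over all genes 8 (0.0571%) passed. The sums held 121 and 108 CPM of *Efnb2* in artery-like wells, scaled by TMM, against 11.4 and 16.1 CPM in vein-like wells, with no overlap. The log2 fold change was 3.0 (SE 1.22, 95% interval 0.20 to 5.80), it was 3.37 and 2.73 in the replicates taken alone, and the edgeR p was 0.0383 before and 0.627 after adjustment. An unadjusted p under 0.05 was reached by 1 of the 7 genes and by 7.88% of all genes. The Wald test of DESeq2 gave *Efnb2* a log2 fold change of 3.10 with an adjusted p of 0.0462, and called 741 genes in all, 6.12% of the 12110 given an adjusted p. limma on mean CPM per well called none of the 7 and 0.0571% of all genes.

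*Efna1* was the other gene of the 7 whose artery-like sums (704 and 461 CPM) lay above both vein-like sums (375 and 295 CPM), an arrangement found for 14.4% of all genes, with the reverse for 26.1%. Its log2 fold change was 0.79 (SE 0.416, 95% interval -0.16 to 1.74), with an adjusted p of 0.646 in edgeR. The *Ephb4* sums were 138 and 74.7 CPM in artery-like wells against 344 and 131 CPM in vein-like wells and overlapped across replicates. Its log2 fold change was -1.08 (SE 0.580, 95% interval -2.41 to 0.24) with an adjusted p of 0.648 in edgeR, beside a median of -0.31 over all genes, and it was -1.32 and -0.81 in the replicates. With plate A of each replicate alone the *Ephb4* value was -3.79 and with plate B alone it was -0.002. *Efnb1* had an interval of -2.92 to 3.30, and the replicates differed in sign for *Efnb1*, *Epha2* and *Epha4*.

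**Figure D3:**
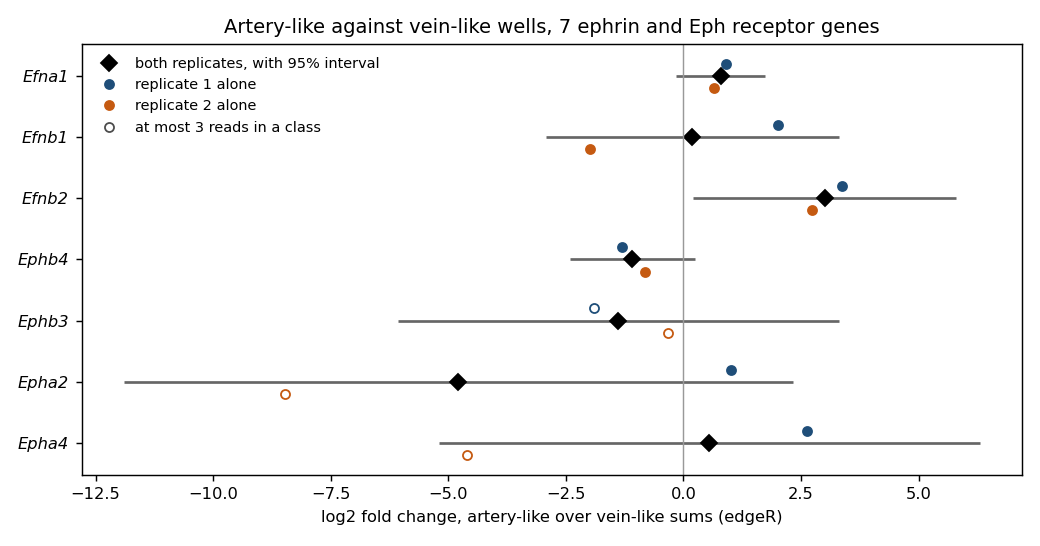
Log2 fold change of artery-like over vein-like sums for the 7 genes from edgeR (diamonds, with 95% intervals) and in replicates 1 and 2 alone (blue and orange circles). Open circles mark values that rest on at most 3 reads in a class and depend on the prior count, and the interval lies above 0 for *Efnb2* alone.

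Each class was also set against the average of the remaining classes, and again 0 of the 7 genes passed the adjusted threshold in edgeR. An unadjusted p under 0.05 was reached by 1 of the 7 genes for artery-like sums (6.87% of all genes), by 1 for vein-like sums (6.52%) and by 0 for capillary-like sums (3.93%). *Efnb2* had a log2 fold change of 2.5 in artery-like sums (SE 0.948, 95% interval 0.34 to 4.67, edgeR adjusted p = 0.656) and *Ephb4* of -1.09 (SE 0.521, 95% interval -2.28 to 0.10, adjusted p = 0.656), where 9 genes (0.0642%) passed. In vein-like sums *Efna1* had a log2 fold change of -0.95 (SE 0.374, 95% interval -1.81 to -0.10, edgeR adjusted p = 0.719), with 8 genes (0.0571%) passing. DESeq2 called *Epha2* in this comparison (adjusted p = 0.0439), as it did 3.2% of the genes given an adjusted p. The edgeR log2 fold change of *Epha2* was 4.57, and the values in the replicates alone had opposite signs (-0.91 and 6.97). In capillary-like sums *Efna1* had a log2 fold change of 0.72 (95% interval -0.09 to 1.53) and *Efnb1* of 0.995 (95% interval -1.29 to 3.28), and 1 gene (0.00714%) passed. The intervals of *Efnb2* in artery-like sums and *Efna1* in vein-like sums lay to one side of 0 before adjustment. The others included 0 and also differences of more than 2-fold, so they do not show that the genes were alike in the classes.

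The ratio of the 2 genes in the same wells needs no scaling between libraries. *Efnb2* made up 46.6% (exact binomial 95% interval 42.9 to 50.4) and 59.1% (55.2 to 63.0) of the summed *Efnb2* and *Ephb4* reads of artery-like wells. In capillary-like wells its share was 15.8% (14.9 to 16.7) and 7.17% (5.07 to 9.79), and in vein-like wells 3.21% (2.71 to 3.77) and 10.95% (9.52 to 12.5). A single well held most of the artery-like *Efnb2* reads of each replicate, which these intervals leave out, and without the well with most *Efnb2* reads in each class the shares were 23.8% and 28.8% in artery-like, 13.4% and 3.12% in capillary-like, and 2.27% and 7.89% in vein-like wells. The artery-like shares lay above the 4 others with and without these wells, while the order of capillary- and vein-like wells was opposite in the replicates. The unnamed cluster with 4 artery markers had shares of 12.4% and 33.4%, wells with no class 34.6% and 25.5%, and the cluster with markers of other cell types 15.8% and 43.8%. These lay below the artery-like shares of the same replicate with all wells included, whereas some lay above the artery-like shares without the highest well.

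Mutual exclusion was then examined within wells. At 10 CPM, replicate 1 had 55 wells with both genes, 44 with *Efnb2* alone, 159 with *Ephb4* alone and 80 with neither, and replicate 2 had 31, 36, 80 and 216. If the genes were independent, 62.7 and 20.5 wells would hold both, so the observed number was 0.877 times the expected number in replicate 1 and 1.51 times in replicate 2. With any read as the limit, the wells with both were 109 and 35, or 0.958 and 1.26 times the expected number, and with 2 reads as the limit they were 57 and 22, or 0.945 and 1.49 times. With each well thinned to 20000 reads they were 39 and 17, or 0.908 and 1.14 times. The replicates lay on opposite sides of 1 under each limit, and complete exclusion would give 0.

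With any read as the limit, wells that held both genes had a median of 172739 and 142172 reads, and wells with neither had 105446 and 56994.5. At 10 CPM the medians were closer, 138080 and 127554 reads for both genes, 171153.5 and 85204 for *Efnb2* alone, 148266 and 108097.5 for *Ephb4* alone, and 135594.5 and 79039 for neither. The part of depth in these states was not tested beyond the thinned values. The correlation of *Efnb2* with *Ephb4* across wells, on log2 normalized counts, was -0.10 over 338 wells of replicate 1 and 0.12 over 363 wells of replicate 2, which is given as a description of sparse counts from shared libraries.

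Wells with both genes were found in each class. At 10 CPM they were 3 of 20 and 2 of 22 artery-like wells, 24 of 125 and 3 of 39 capillary-like wells, and 5 of 53 and 5 of 50 vein-like wells. *Efnb2* alone was present in 25% and 18.2% of artery-like wells, 12.8% and 5.1% of capillary-like wells, and 7.5% and 6.0% of vein-like wells. *Ephb4* alone was present in 50.0% and 9.1% of artery-like wells, 43.2% and 20.5% of capillary-like wells, and 81.1% and 30.0% of vein-like wells. Artery-like wells with *Ephb4* alone outnumbered those with *Efnb2* alone in replicate 1 (10 against 5 wells), and in replicate 2 they did not (2 against 4 wells). Vein-like wells of both replicates had *Ephb4* alone more often than *Efnb2* alone, in 43 against 4 wells and 15 against 3 wells.

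**Figure D4:**
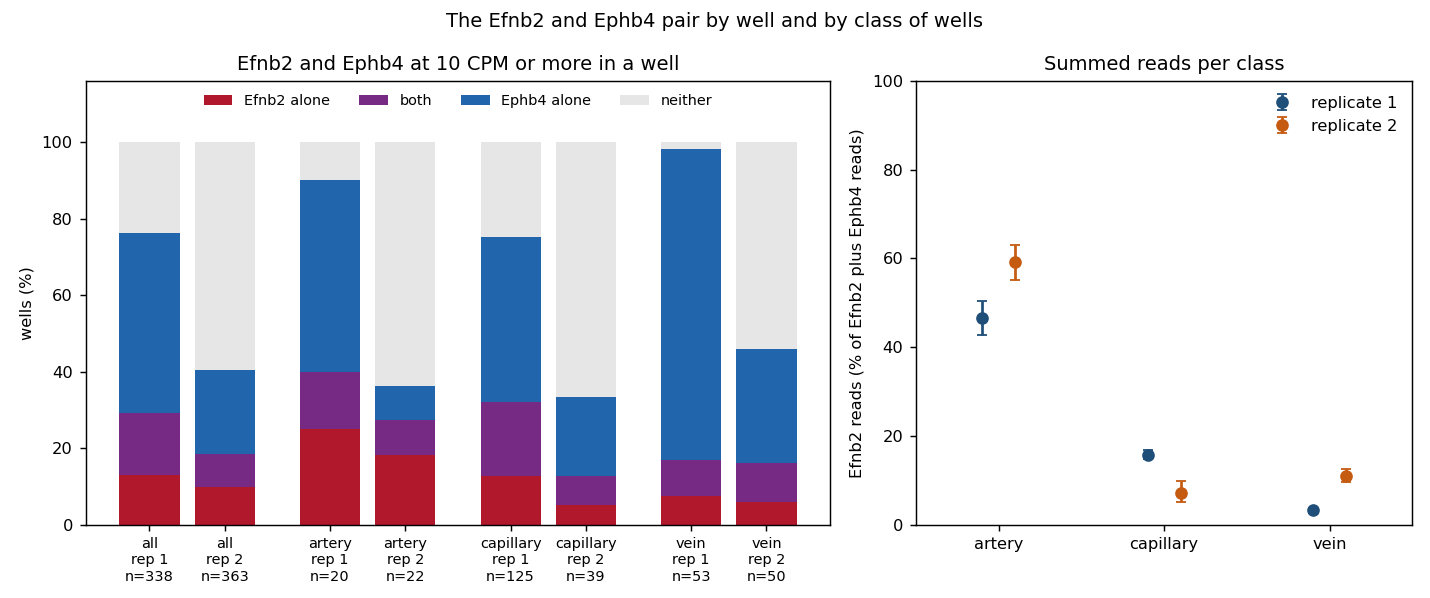
Left, share of wells (%) with at least 10 CPM of *Efnb2* alone, of both genes, of *Ephb4* alone or of neither, in all kept wells and by class and replicate. Right, *Efnb2* reads as a percentage of *Efnb2* plus *Ephb4* reads summed per class, with exact binomial 95% intervals, at 46.6 and 59.1% in artery-like and 3.21 and 10.95% in vein-like wells.

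None of the 9 other pairs of the 7 genes examined, among them pairs of 2 ligands or 2 receptors, had fewer shared wells than expected in both replicates at 10 CPM. *Efna1* and *Epha2* shared 61 and 20 wells, 0.96 and 1.09 times the expected number. *Efnb1* and *Ephb4* shared 48 and 10 wells, 1.18 and 1.17 times, and *Efnb1* and *Efnb2* shared 21 and 3 wells, 1.12 and 0.58 times. *Efnb2* and *Epha4* shared 12 and 14 wells, 1.14 and 1.43 times, and after thinning 0.69 and 0.99 times, so no direction is read from them.

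The gradient between arterial and venous markers was followed without clusters by ordering the wells of each replicate, other than those of the cluster with markers of other cell types, by artery minus vein marker score in 5 bins of 51 to 61 wells. *Efnb2* reached 10 CPM in 37.7%, 33.3%, 28.3%, 26.7% and 23.3% of wells from the arterial to the venous end in replicate 1, and in 30.8%, 23.1%, 19.2%, 13.5% and 9.8% in replicate 2. The share was thus lower at every step towards the venous end in both replicates, over bins that were not tested. Its mean level did not follow the same order, at 57.6, 83.2, 45.5, 19.6 and 29.2 CPM in replicate 1 and 57.7, 136, 17.4, 12.6 and 7.91 CPM in replicate 2, with the highest mean in the bin next to the most arterial. *Ephb4* reached 10 CPM in 70.5%, 48.3%, 55%, 70.0% and 83.3% of wells in replicate 1, and in 30.8%, 38.5%, 42.3%, 32.7% and 31.4% in replicate 2. The share was highest at the venous end of replicate 1 and in the middle bin of replicate 2. Mean *Ephb4* was 225 CPM in the most arterial and 357 CPM in the most venous bin of replicate 1, and 226 and 134 CPM in those of replicate 2. Wells of the most arterial bin held both genes in 13 and 8 cases. Median depth was 137422 reads in the most arterial and 186486 reads in the most venous bin of replicate 1, and 138988 and 176599 reads in replicate 2.

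**Figure D5:**
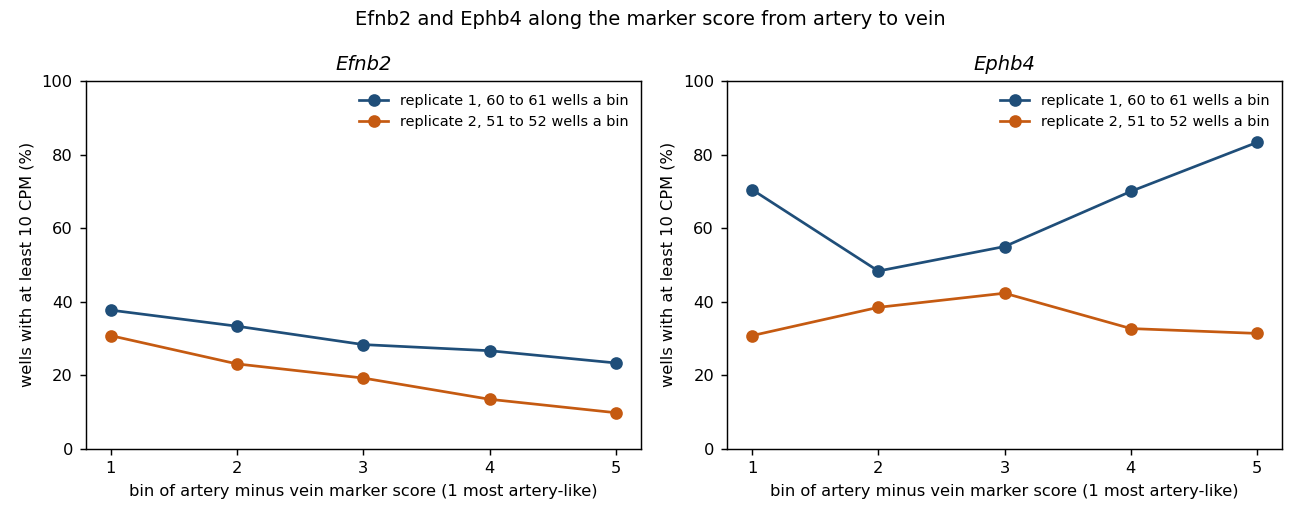
Share of wells (%) with at least 10 CPM of *Efnb2* (left) and *Ephb4* (right) in 5 bins of the artery minus vein marker score, from the most artery-like (1) to the most vein-like (5), in replicates 1 (blue) and 2 (orange). *Efnb2* went from 37.7 to 23.3% and from 30.8 to 9.8%, whereas *Ephb4* had no common trend.

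Of the 22 family genes, 9 had enough reads to be tested, and edgeR called 0 of them in the comparison of artery- and vein-like sums, against 1 by DESeq2 (*Efnb2*), with 1 at an unadjusted p under 0.05 and a median log2 fold change of -1.08 beside -0.31 over all genes, the same when a gene unread in artery-like sums was set at its bound. Among the other 15 genes, *Epha1* was the one read in at least 10% of wells of both replicates, in 22.8% and 10.5%, at 7.58 and 11.1 CPM. *Epha1* sums were 2.21 and 1.16 CPM in artery-like and 5.03 and 8.93 CPM in vein-like wells (log2 fold change -1.95, SE 1.94, edgeR adjusted p = 0.855). Of 36 genes that act with ephrins and Eph receptors, 29 were tested and edgeR called 0 in this comparison, with 3 at an unadjusted p under 0.05, beside 7.88% of all genes. DESeq2 called 2 of the 29 (*Pick1* and *Abl2*, named after their values were seen), beside 6.12% of the genes given an adjusted p, and the median log2 fold change was -0.16. When each class was set against the others, edgeR called 0 of the other family genes and 0 of the partners. DESeq2 called *Ephb1*, *Vav3*, *Pick1* and *Abl2* for artery-like sums, where it called 6.94% of all genes given an adjusted p, *Ephb1* for capillary-like sums (1.82%) and *Crkl* for vein-like sums (3.2%), again named after their values were seen. *Ephb1*, a receptor of B-type ephrins, was read in 7 and 9 wells, and 1 well held 275 of its 318 reads in replicate 2.

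The 6 partner genes with the highest mean CPM, not scaled by length, were *Sdcbp* (syntenin, which binds the tail of B-type ephrins) at 589 CPM, *Arhgef15* (a guanine nucleotide exchange factor downstream of Eph receptors) at 316, *Stat3* (a transcription factor) at 291, *Sh2d3c* (an Eph receptor adaptor) at 261, *Nck1* (an SH2 adaptor) at 196 and *Adam10* (a protease that cleaves ephrins) at 183 CPM. Per kilobase the order differs, with *Crk* (34.0) above *Stat3* (30.5) and *Sh2d3c* (49.8) above *Arhgef15* (48.7). *Sh2d3c* sums were 119 and 85.4 CPM in artery-like, 418 and 382 CPM in capillary-like and 229 and 295 CPM in vein-like wells. The log2 fold change of *Sh2d3c* between artery- and vein-like sums was -1.37 (SE 0.521, 95% interval -2.56 to -0.18), with an edgeR p of 0.0288 before and 0.627 after adjustment. It was called by edgeR on plate A alone (log2 fold change -4.98, adjusted p = 0.0316), where 36 of 11982 genes were called. At a non-BEC limit of 10 CPM, where no artery-like well of replicate 1 remained, its log2 fold change was -7.58. *Sdcbp* (-0.54), *Adam10* (-0.45), *Stat3* (-0.16), *Arhgef15* (-0.03) and *Nck1* (0.74) had log2 fold changes whose 95% intervals included 0.

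The genes whose pattern across wells was most like that of *Efnb2* had a mean Pearson r of at most 0.142 (*Eogt*, followed by *Gm43714*, *Snu13*, *Sf1* and *Uaca*), among 3909 genes read in at least 20% of wells of both replicates. For *Ephb4* the mean r was at most 0.166 (*Ptp4a1*, followed by *Mob2*, *Rps15a*, *Srpk2* and *Slc43a3*). Such weak correlations of sparse counts, in which wells share depth and library, describe these wells and single out no gene.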

How the data were processed

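Ear dermal BECs were profiled by Smart-seq2 in 4 plates of 2 replicates, with 31864976 to 74739095 reads a plate. The authors deposited unnormalized read counts for each gene in each well. Per the labels and the methods of the study, single reads were aligned to mm10 with TopHat2 2.1.1, duplicates were removed (SAMtools 0.1.18) and the rest were counted with Subread 1.4.6-p5; the annotation release is not given in the sources used here. Removal of duplicates caps the counts of short, abundant transcripts. Symbols came from GENCODE vM21 for 46005 of 46517 identifiers, and 92 spike-ins stayed out. *Ephb4* shares 33 exon bases with *Zan* on the opposite strand, and reads carry no strand.

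Wells needed 600 reads and 500 to 8000 genes, a read of 2 of 3 BEC genes, and under 100 CPM of *Kcnj8*, *Pdgfrb*, *Ptprc*, *Prox1* and *Lyve1* each. No doublet caller was run; the upper limit on genes was the only step against doublets. All plates share the 384 well positions, and 0 pairs of wells held identical counts. Variable genes and size factors were taken from scran 1.30.0, and clusters from leidenalg 0.10.2 at resolution 0.6. This was the lowest resolution tried that gave all 3 classes in both replicates, and at 0.4 there was no artery-like cluster. A cluster took the name of a class when it was at least 1.25 times higher than the other wells for at least 50% of that class's markers, a rule set after the clusters' markers had been seen. No other cell type could have as many markers higher. The cluster's highest genes also had to hold at least as many markers of that class as of any other type. The genes of interest, the lists and the limit of 100 CPM were chosen with earlier results of these data known.

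Counts were summed per replicate and class, and genes reaching 10 counts in 2 or more of 6 sums were tested with edgeR 4.0.16 (TMM, 2 residual degrees of freedom). The 3 classes within a replicate share 1 pool of mice, so the replicate was a block; deviations of sums of the same replicate correlated at 0.12, 0.101 and 0.0896. On data simulated with the estimated spread for artery-like against vein-like sums (13292 genes), edgeR recovered 6% of 100 genes changed 4-fold and 20% of 100 genes changed 8-fold, with 0 false calls. Alternatives were DESeq2 1.42.0, limma 3.58.1 on mean CPM, other filters on wells and genes, single plates, thinned wells, other classes and leaving out a replicate.

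Named were the 7 genes, other family genes read in 10% of wells of both replicates or past the threshold in edgeR, the 6 partners of highest CPM or past it, and the 5 genes most correlated with *Efnb2* or *Ephb4*. R 4.3.3 and Python 3.11.15 were used.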

Additional observations from a re-analysis of the deposited data

Results flagged for a closer look

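Values on the 4 plates were checked for single plates far from the others, in 56 sets of 4 values, of which 5 stood apart. The usual rate of about 1 in 20 by chance assumes independent values of normal distribution and does not apply here. Where all other plates are at 0, any value stands apart, and the mean and the share of the same wells entered as separate sets. The 5 sets that stood apart all concern plates of replicate 1 and genes with few positive wells. *Epha4* in artery-like wells had a mean of 85.9 CPM on plate B of replicate 1 against 0 to 1.36 CPM on the other plates, and the share of wells with at least 10 CPM there was 12.5% against 0%. *Ephb3* in capillary-like wells had a mean of 17.6 CPM on plate A of replicate 1 against 0 to 0.102 CPM elsewhere, and a share of 1.69% against 0%. *Efnb1* in vein-like wells was present at 10 CPM in 22.9% of wells on plate B of replicate 1 against 11.1% to 12.5% on the other plates.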

How the results depend on the processing

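*Efnb2* stayed higher in artery-like than vein-like sums under every alternative tried, at log2 fold changes of 1.53 to 4.68, with adjusted p of 0.427 to 1 in edgeR and limma and 0.0462 in DESeq2's Wald test. *Ephb4* stayed lower, at -3.79 to -0.002. *Efnb1* changed sign with a non-BEC limit of 10 CPM (-0.95) or 300 CPM (-0.27), plate A (-10.6) or B (-0.12) alone, classes from marker scores (-1.07), the cluster of few artery markers added (-0.70) and without replicate 1 (-1.98, against 2.02 without replicate 2), and for capillary-like wells against others on plate B (-1.05). *Epha2* did so without replicate 2 (1.02, against -8.47 without replicate 1), *Epha4* with limma (-0.92), 10 CPM (-4.65), plate A (-2.11) and without replicate 1 (-4.60, against 2.62 without replicate 2), and *Epha1* on plate B (0.047), with marker scores (0.85) and the added cluster (1.29). Among partners, *Arhgef15* turned with DESeq2's size factors (0.0737) or Wald test (0.0735), all 3 BEC genes required (0.14), plate A (0.54), the next higher resolution (0.0011) and thinning (0.0812), *Stat3* with 300 CPM (0.0025), all 3 BEC genes (0.0227) and the added cluster (0.0724), and *Adam10* with 10 CPM (0.69) and the added cluster (0.23). *Sh2d3c*, not called in the comparison as reported, was called by edgeR on plate A alone (-4.98, adjusted p 0.0316), where 36 of 11982 genes were called. It was at -7.58 at a non-BEC limit of 10 CPM, and had adjusted p of 0.429 to 1 under the other alternatives. The causes were not tested.

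The share of *Efnb2* in *Efnb2* plus *Ephb4* reads of artery-like wells, 52.9% as a mean of replicates, was 65.8% at a non-BEC limit of 10 CPM (replicate 2 alone, against its 59.1% at 100 CPM), 43.1% at 300 CPM, 33.9% with marker scores, 43.2% from mean CPM, 26.3% without the well with most *Efnb2* reads and 28.0% with the added cluster, with 46.6 to 59.1% when a replicate was left out. For capillary-like wells it was 24.1% at 10 CPM and 20.7% at 300 CPM, with 7.17 to 15.8% when a replicate was left out, and for vein-like wells 13.5% with marker scores, with 3.21 to 10.95%. Observed over expected wells with both genes, with any read as the limit, ranged from 0.958 to 1.26 when a replicate was left out, against 0.877 to 1.51 at 10 CPM.

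Counts of genes called, for artery- against vein-like and then for artery-, capillary- and vein-like against the others, were 8, 9, 1 and 8. They were 741, 803, 215 and 387 with DESeq2's Wald test, 147, 130, 62 and 120 without a filter on low counts, 34, 28, 28 and 47 at 10 CPM, 0, 2, 0 and 9 at 300 CPM, 36, 30, 20 and 32 on plate A, 33, 26, 4 and 33 on plate B, 0, 0, 0 and 3 with marker scores, 49, 40, 7 and 47 with thinned wells, 0, 0, 0 and 4 with the added cluster, 8, 3, 0 and 13 with limma, 13, 10, 1 and 11 with all 3 BEC genes required, and 3, 9, 0 and 8 at the next higher resolution. Without the replicate block they were 7, 6, 0 and 5, and no call of the 7 genes changed.

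At the non-BEC limit of 10 CPM no artery-like well remained in replicate 1, and leaving out a replicate leaves values without a test. The call of positive wells at 10 CPM, the omission of the cluster with markers of other cell types, the read share from mean CPM, the omission of the highest well and the added cluster were chosen after seeing the data. Artery-like wells numbered 20 and 22 in the comparison as reported and 94 and 89 with the added cluster. The part of their number in the calls was not tested. With the estimated spread between sums, edgeR recovered 6% of genes changed 4-fold in the simulation of artery-like against vein-like sums.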
